A study of Mus musculus with 46 samples.

Results

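The comparison described here set 4 livers of mice labelled Mfn DKO, in which both mitofusin genes Mfn1 and Mfn2 were targeted, against 6 livers labelled control. The members are all liver libraries whose descriptions name these groups, which gives 10 of the 46 libraries of the series, and a further 3 livers labelled Tfam KO served as a second knockout. The descriptions of all 13 livers carry the letters AAV, the usual abbreviation for adeno-associated virus, a gene delivery vector, so the controls share that mark. The promoter and recombinase of a vector, its dose, the strain, the deleted exons and the ages of the mice are not given in the sources used here. Liver tissue was flash frozen, DNase was applied to its total RNA, and fragments were read from both ends. By its title the series is about mitochondrial signalling back to the nucleus and about tissue identity.

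Mitochondria join and divide all the time. Mfn1 and Mfn2 encode 2 related GTPases of the outer mitochondrial membrane that tether neighbouring mitochondria and drive their fusion, while Opa1 fuses the inner membrane and Dnm1l (DRP1) cuts mitochondria apart. Mfn2 is also found where the endoplasmic reticulum touches mitochondria. When mitochondria are disturbed, cells commonly start the integrated stress response, in which translation slows and transcription factors of the ATF4 family turn on genes of amino acid supply and secreted factors such as Fgf21 and Gdf15.

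Total counts ran from 41961114 to 56894510 per liver. Hepatocyte markers were abundant in every liver: the summed level of 8 such genes was 101993 to 150925 CPM (counts scaled to library size) in the controls and 91408 to 110744 CPM in the Mfn DKO livers. The labels give no sex for livers, but the libraries fell into 2 classes by Xist, a transcript of the inactive X chromosome: 3 control and 2 Mfn DKO livers had over 100 CPM of it, and 3 control and 2 Mfn DKO livers had under 10 CPM. Both classes were therefore held in equal shares by both groups. Along the first principal component, which held 41.4% of the variance, Tfam KO replicate 2 lay far from the other 12 livers. Because one estimate of the spread served all 13 livers, that library also bears on the calls between Mfn DKO and control, and counts are given without it too. Scaling mattered as well: the TMM factors were 0.862 to 0.929 in the controls and 0.995 to 1.04 in the Mfn DKO livers.

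The targeted transcripts were examined first. Mfn1 (ENSMUSG00000027668; GRCm38 chr3:32529465-32579239, plus strand) was at 67.8–88.3 CPM (median 82.5) in the controls and at 15.6, 21.8, 17.8 and 25.4 CPM in Mfn DKO replicates 1 to 4. Mfn2 (ENSMUSG00000029020; chr4:147873599-147904704, minus strand) was at 113–191 CPM (median 163) in the controls and at 32.3, 38.4, 36.6 and 45.1 CPM in the Mfn DKO livers. For both genes every Mfn DKO liver lay below every control. Mfn1 fell to 24.9% of control (log2 fold change -2.00, SE 0.15, adjusted p = 2.64e-05) and Mfn2 to 24.3%. Mfn2 had a log2 fold change of -2.04 (SE 0.16, adjusted p = 2.97e-05). On the authors' per-length TPM scale, Mfn2 was the more abundant of the pair in control liver, at 64.3 ± 10.3 TPM (SD, n = 6) against 28.2 ± 1.79 TPM for Mfn1, and the Mfn DKO livers held 19.3 ± 2.72 and 8.68 ± 1.84 TPM (SD, n = 4). In whole liver, fewer cells of a type and less RNA per cell cannot be told apart, so the remaining transcript cannot be assigned to cells. In the Tfam KO livers Mfn1 stood at 99.6, 81.9 and 75.5 CPM and Mfn2 at 124, 122 and 134 CPM, and neither passed the test against control (adjusted p = 0.707 and 0.166).

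**Figure D1:**
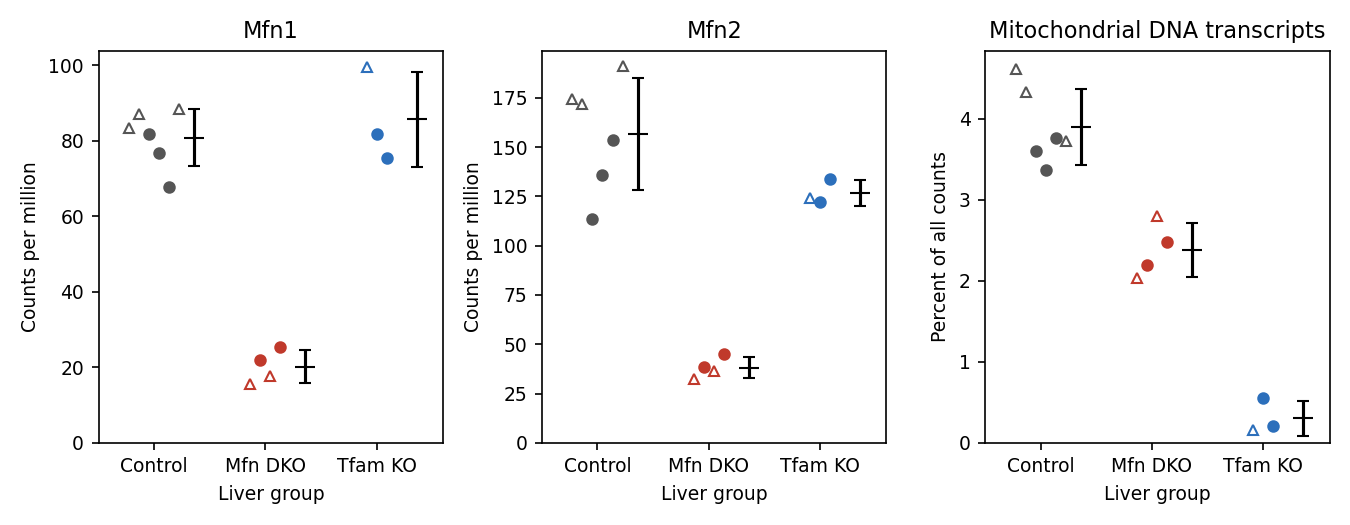
CPM of Mfn1 and Mfn2 and the percentage of all counts that came from mitochondrial DNA transcripts, 1 point per liver, with the mean and SD beside each group (control n = 6, Mfn DKO n = 4, Tfam KO n = 3). Filled circles are livers with Xist, open triangles livers without it. All 4 Mfn DKO livers lie below all 6 controls in each panel.

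Across the transcriptome, 17024 genes were tested with edgeR's quasi-likelihood F-test, and a gene was called at a Benjamini-Hochberg adjusted p of 0.05 or less over all of them. Of these, 1681 were called (9.87%): 891 rose (5.23%) and 790 fell (4.64%). Among the called genes, 495 rose and 259 fell by at least 2-fold, and the median log2 fold change of all genes tested was 0.02. The 2 groups did not overlap in 1503 of the called genes, and in 3275 of all genes tested (19.2%).

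The number of calls depended on which livers entered. It was 3379 (19.5%) without Tfam KO replicate 2 and 2904 without Tfam KO replicate 3. It was 1020, 1054 and 924 without control replicates 1, 2 and 6, and 686, 793, 899 and 900 without Mfn DKO replicates 1 to 4. Within the Xist classes, in a fit of the 10 livers compared, 2573 of 16080 genes (16%) were called among livers with Xist and 3770 (23.4%) among livers without it, and the mean effect over both classes was called for 5825 (36.2%). Of the 1681 genes called over all livers, 1651 were tested in that fit, and all 1651 changed in the same direction in both classes. Because these genes were chosen by their calls over the same livers, that agreement is not independent support. With library size alone as the scaling, the median of all genes moved to 0.21 and the split of calls became 1653 higher and 356 lower, so small changes are best read against that shift. In what follows, a bracketed range after a count of called genes gives the lowest and highest count over the 13 fits that each left out 1 liver. Counts for every list are to be read beside the 5.23% of all genes called higher and the 4.64% called lower.

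The genes of the integrated stress response were higher in the Mfn DKO livers. Of 48 tested members, 24 rose (14 to 30) and 0 fell (0 to 1), against 5.23% of all genes called higher, and the median log2 fold change of the list was 0.99. The count was 15 without Mfn DKO replicate 1, 14 without replicate 2 and 30 without Tfam KO replicate 2 (9.56% of all genes higher there). The median was 1.02 in livers with Xist and 0.93 in livers without it.

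Many genes of this response carry a CARE element, the composite site TGATGNAA that C/EBP and ATF factors bind, close to their start. In the 300 bases around the start that RefSeq gives (250 before and 50 after, GRCm38.p6), TGATGNAA was found on either strand in 3.97% of 32851 promoter windows of that length, which is 4.51% of the 27025 genes they belong to. It was found for 9 of the 24 called members, all of which had a window (37.5%), and for 26.8% of the 41 members with a window. The 250 bases before the start are shown for 4 members described next, Asns at chr6:7693210-7693459, minus strand, Atf3 at chr1:191183334-191183583, minus strand, Fgf21 at chr7:45615491-45615740, minus strand and Nupr1 at chr7:126625471-126625720, minus strand. Each runs 5′ to 3′ on the gene's strand, and capitals mark the match, which is a description of the letters and not of binding.
Asns: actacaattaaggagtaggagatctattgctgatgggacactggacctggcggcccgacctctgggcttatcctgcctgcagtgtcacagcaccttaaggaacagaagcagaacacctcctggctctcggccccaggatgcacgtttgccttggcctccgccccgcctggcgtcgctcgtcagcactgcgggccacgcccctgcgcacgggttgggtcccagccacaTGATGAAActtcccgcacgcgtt
Atf3: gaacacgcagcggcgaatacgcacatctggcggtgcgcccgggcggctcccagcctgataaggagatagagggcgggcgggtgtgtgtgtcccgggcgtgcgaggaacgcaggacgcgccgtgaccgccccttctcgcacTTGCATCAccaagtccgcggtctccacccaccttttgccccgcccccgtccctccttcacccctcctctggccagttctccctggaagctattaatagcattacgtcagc
Fgf21: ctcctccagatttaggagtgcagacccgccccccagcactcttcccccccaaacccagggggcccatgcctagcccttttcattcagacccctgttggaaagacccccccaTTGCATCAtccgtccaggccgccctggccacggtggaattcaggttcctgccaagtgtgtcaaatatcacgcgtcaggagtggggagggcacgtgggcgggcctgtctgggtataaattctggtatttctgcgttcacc
Nupr1: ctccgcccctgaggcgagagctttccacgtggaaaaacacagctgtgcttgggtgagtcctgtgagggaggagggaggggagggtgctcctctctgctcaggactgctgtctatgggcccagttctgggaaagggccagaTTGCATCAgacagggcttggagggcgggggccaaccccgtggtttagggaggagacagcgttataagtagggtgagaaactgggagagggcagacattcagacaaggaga

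Among the transcription factors of the list, 5 of 7 tested members rose. Atf4 itself was not called: its level was 86.9–149 CPM (median 106) in the controls and 125, 126, 144 and 118 CPM in the Mfn DKO livers, so the groups overlapped. Atf4 had a log2 fold change of 0.22 (SE 0.19, adjusted p = 0.485). ATF4 is controlled largely at translation, which RNA counts do not measure. Atf5, a relative tied to mitochondrial stress, ranged over 97.4–268 CPM (median 132) in the controls and reached 776, 835, 744 and 701 CPM in the Mfn DKO livers, without overlap. Atf5 had a log2 fold change of 2.22 (SE 0.31, adjusted p = 0.00123). Atf3, an early stress factor, was at 1.32–3.58 CPM (median 2.42) in the controls and at 9.19, 10.3, 7.83 and 27.4 CPM in the Mfn DKO livers (log2 fold change 2.5, SE 0.46, adjusted p = 0.00685), and replicate 4 stood above the other 3. Ddit3 (CHOP), linked to cell death under stress, rose from a control range of 6.37–23.6 CPM (median 12.3) to 28.5, 43, 32.4 and 56.1 CPM. Ddit3 had a log2 fold change of 1.64 (SE 0.40, adjusted p = 0.025). Nupr1, a small stress-induced regulator, rose from a control range of 0.634–2.69 CPM (median 1.27) to 33, 73.8, 29.8 and 79.7 CPM. Nupr1 had a log2 fold change of 5.18 (SE 0.51, adjusted p = 1.81e-04). Cebpg, a dimer partner of ATF4, rose modestly, from 79.5 ± 10.4 to 132 ± 8.03 CPM (SD, n = 6 and 4; log2 fold change 0.73, SE 0.19, adjusted p = 0.0306).

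Feedback genes of the response were in part higher too. Trib3, a pseudokinase that restrains ATF4 and AKT, had 3.22–7.21 CPM (median 4.13) in the controls and 73.2, 94.2, 90.3 and 83.8 CPM in the Mfn DKO livers, without overlap. Trib3 had a log2 fold change of 4.22 (SE 0.34, adjusted p = 2.97e-05). Ddit4 (REDD1), an inhibitor of mTORC1, had 6.08–12.8 CPM (median 11.8) in the controls and 217, 35, 113 and 88.9 CPM in the Mfn DKO livers, a wide spread among the latter but no overlap. Ddit4 had a log2 fold change of 3.44 (SE 0.40, adjusted p = 4.48e-04). Of the 13 tested kinases and feedback members, 3 rose and 0 fell.

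The enzymes of serine, one-carbon and asparagine synthesis, which are low in normal liver, were among the steepest increases. Psat1 and Phgdh, enzymes of serine synthesis, stood at 0.475–2.46 CPM (median 1.05) and 0.0994–0.495 CPM (median 0.41) in the controls. In the Mfn DKO livers Psat1 reached 30.4, 34.7, 38.2 and 28.7 CPM (log2 fold change 4.85, SE 0.64, adjusted p = 9.79e-04) and Phgdh 4.04, 7.44, 3.97 and 2.56 CPM. Phgdh had a log2 fold change of 3.67 (SE 0.74, adjusted p = 0.0108). Mthfd2, the mitochondrial folate enzyme of growing cells, went from a control range of 0.738–1.66 CPM (median 1.24) to 10.5, 6.3, 7.0 and 7.58 CPM. Mthfd2 had a log2 fold change of 2.68 (SE 0.53, adjusted p = 0.00975). Asns, asparagine synthetase, was at 0.265–2.19 CPM (median 0.677) in the controls and at 73.1, 38.7, 47.1 and 24.4 CPM in the Mfn DKO livers. Asns had a log2 fold change of 5.54 (SE 0.80, adjusted p = 0.00166). No Mfn DKO liver overlapped the controls for any of these 4 enzymes. In all, 4 of 7 serine and one-carbon enzymes, 5 of 7 amino acid enzymes and 4 of 10 amino acid transporters rose. Aldh18a1, of proline synthesis, rose from 1.61 ± 0.326 to 7.57 ± 0.528 CPM (log2 fold change 2.23, adjusted p = 0.0264), and Gpt2, a mitochondrial alanine aminotransferase that liver makes in quantity, from 425 ± 185 to 909 ± 292 CPM with overlapping groups (log2 fold change 1.1, adjusted p = 0.0407). Aldh1l2, a mitochondrial folate enzyme, was not called, at 0.518 ± 0.274 CPM in control and 0.874 ± 0.0691 CPM in Mfn DKO liver (log2 fold change 0.75, adjusted p = 0.533).

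The secreted signals rose too: 3 of 4 tested were called. Fgf21, a liver hormone of fasting and stress, was at 0.502–5.14 CPM (median 1.66) in the controls and at 88.9, 46.8, 45.9 and 83.1 CPM in the Mfn DKO livers. Fgf21 had a log2 fold change of 4.82 (SE 0.60, adjusted p = 6.40e-04). Gdf15, a hormone that lowers food intake, went from a control range of 0.951–8.98 CPM (median 4.11) to 25, 23.2, 18 and 31.1 CPM. Gdf15 had a log2 fold change of 2.37 (SE 0.49, adjusted p = 0.0117). For both, the lowest Mfn DKO liver stood above the highest control. Adm2 (adrenomedullin 2) had no count in any control and 1.55, 0.966, 0.686 and 1.52 CPM in the Mfn DKO livers; against a floor of 3 counts it was at least 17.5-fold higher (adjusted p = 0.00791). Vldlr, a lipoprotein receptor that ATF4 is known to induce, went from a control range of 2.72–13.3 CPM (median 7.82) to 31, 64.9, 43.3 and 55.6 CPM. Vldlr had a log2 fold change of 2.61 (SE 0.47, adjusted p = 0.00588).

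**Figure D2:**
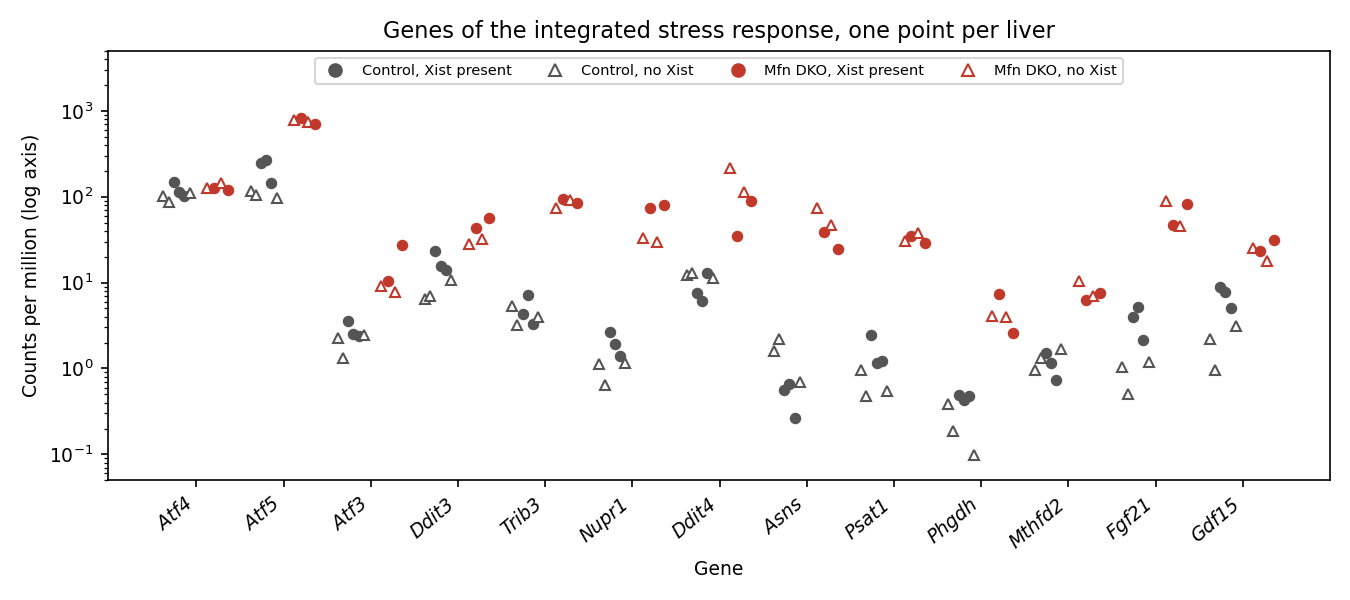
CPM, on a log axis, of 13 genes of the integrated stress response in 6 control and 4 Mfn DKO livers, 1 point per liver; filled circles are livers with Xist, open triangles livers without it. The groups overlap for Atf4 and are apart for the other 12 genes.

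Mitochondrial DNA transcripts made up less of the RNA in the Mfn DKO livers. Their share of all counts was 4.62%, 4.33%, 3.6%, 3.37%, 3.76% and 3.72% in control replicates 1 to 6 and 2.04%, 2.20%, 2.80% and 2.48% in Mfn DKO replicates 1 to 4. The 6 controls averaged 3.90% ± 0.472 (SD) and the 4 Mfn DKO livers 2.38% ± 0.334 (SD), a difference of -1.52 percentage points. The exact two-sided permutation test over the 210 regroupings gave p = 0.00476, the smallest it can give. In the Tfam KO livers, where the factor that packages and transcribes mitochondrial DNA was targeted, the share was 0.158%, 0.550% and 0.202%.

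Gene by gene the same direction held for all 11 of the 13 mitochondrial protein genes that were tested, with a median log2 fold change of -0.97. In 8 of the 11 the groups did not overlap (10.3% of all genes had such a fall). Only 3 passed the test (4.64% of all genes were called lower), and that count was 9 without Tfam KO replicate 2 (9.95% lower there), 5 and 6 without Tfam KO replicates 1 and 3, and 0 in 7 of the other fits, those without control replicate 1, 2 or 6 or any 1 of the Mfn DKO livers. It was also 0 with library size alone as the scaling, where the median was -0.77. mt-Nd2, a complex I subunit, was at 4245–6844 CPM (median 4820.0) in the controls and at 2056, 2052, 2764 and 2308 CPM in the Mfn DKO livers. mt-Nd2 had a log2 fold change of -1.2 (SE 0.31, adjusted p = 0.0301). mt-Nd4, another complex I subunit, fell likewise (log2 fold change -1.17, SE 0.32, adjusted p = 0.039), and mt-Atp6, of ATP synthase, was listed at only 1.03 ± 0.176 CPM in control (log2 fold change -0.91, SE 0.25, adjusted p = 0.0371); mitochondrial sequences have near-identical copies in nuclear DNA, so its counts are uncertain. Among those not called, mt-Co1 of complex IV was at 10749.6–15692 CPM (median 11814) against 6305, 6197, 8448 and 7157 CPM (log2 fold change -0.82, adjusted p = 0.11), with no overlap. mt-Nd1 was at 4929.9 ± 569 against 2503 ± 396 CPM (log2 fold change -0.98, adjusted p = 0.0745), and mt-Cytb of complex III at 9064 ± 1609 against 4841 ± 514 CPM (log2 fold change -0.90, adjusted p = 0.0827).

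Nuclear genes of the respiratory chain changed little. Of 78 tested subunits, 5 fell (0 to 15) and 0 rose (0 to 0), with a median of -0.19, which was 0.01 with library size alone. The 5 that fell are 6.41% of the list, near the 4.64% of all genes called lower. Their number was 0 without Mfn DKO replicate 1, 1 without Mfn DKO replicate 3 or 4 or control replicate 6, 3 without control replicate 1, 2, 3 or 4 or Mfn DKO replicate 2, and 14 and 15 without Tfam KO replicates 2 and 3. All 5 belonged to complex I, among them Ndufb3, from 96.9 ± 14.2 to 61.4 ± 3.44 CPM (log2 fold change -0.66, adjusted p = 0.0135), and Ndufa3, from 98.1 ± 10.9 to 66.8 ± 4.57 CPM (log2 fold change -0.55, adjusted p = 0.0272). Of 77 mitochondrial ribosome proteins, whose median was -0.14, and 0.05 with library size alone, 2 rose (1 to 3), with Mrpl54 at 0.66 on the log2 scale (adjusted p = 0.0158), and 6 fell (1 to 13), with Mrpl49 at -0.64 (adjusted p = 0.0119). In this list 10.4% were called, near the 9.87% of all genes. The lower count was 1, 2 and 3 without Mfn DKO replicates 1, 3 and 4, 3 without control replicate 2 or 6, and 10, 13 and 11 without control replicate 5 and Tfam KO replicates 2 and 3. Of 25 genes of mitochondrial DNA upkeep and expression, 1 rose, the coactivator Ppargc1a, from 12 ± 2.18 to 18.9 ± 3.49 CPM (log2 fold change 0.66, adjusted p = 0.0397), and 2 fell, with Polg2, the accessory subunit of the DNA polymerase, from 12.3 ± 2.72 to 7.13 ± 1.35 CPM (log2 fold change -0.79, adjusted p = 0.0386). The share called among those 25 genes was 12%, again near that of all genes. Tfam was at 54.2–66.2 CPM (median 57.9) in the controls and 59.9, 52.7, 57.7 and 50.4 CPM in the Mfn DKO livers and was not called (log2 fold change -0.09, adjusted p = 0.514).

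Mitochondrial proteases and chaperones split. Lonp1, the main matrix protease, rose from a control range of 221–252 CPM (median 237) to 889.8, 873, 944 and 607 CPM (log2 fold change 1.81, SE 0.20, adjusted p = 4.21e-04), with every Mfn DKO liver more than 2-fold over the highest control. Hspa9 (mortalin), the matrix HSP70, rose from a control range of 667–836 CPM (median 782) to 1964, 1822, 2049 and 1172 CPM. Hspa9 had a log2 fold change of 1.18 (SE 0.20, adjusted p = 0.00456). Its partners Grpel2 (log2 fold change 0.52, adjusted p = 0.0432) and Dnaja3 (log2 fold change 0.55, adjusted p = 0.0494) rose by less, while Parl, a protease of the inner membrane, fell (log2 fold change -0.48, adjusted p = 0.0141). These were the 4 members that rose (2 to 4) and the 1 that fell (0 to 1) among 20 tested. The chaperonin pair was not called: Hspd1 (HSP60) was at 613 ± 38.4 against 749 ± 92.2 CPM (log2 fold change 0.29, adjusted p = 0.196), and Hspe1 (HSP10) at 171 ± 17 against 172 ± 23.1 CPM (log2 fold change 0.01, adjusted p = 0.955).

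Around fusion and fission, 6 of 36 tested genes of mitochondrial dynamics fell (3 to 10), the 2 mitofusins included, and 0 rose (0 to 3). That count was 3 without Mfn DKO replicate 1 and 10 without Tfam KO replicate 2. Besides the mitofusins it held Mief2 and Mief1, adaptors that recruit DRP1, Mtfp1, a promoter of fission in the inner membrane, and Apool, a cristae protein. Mief2 went from a control range of 28.7–38.7 CPM (median 33.5) to 19.8, 17.7, 19.1 and 19.5 CPM (log2 fold change -0.82, SE 0.10, adjusted p = 5.32e-04) and Mtfp1 from a control range of 36.7–48.2 CPM (median 39.6) to 19.6, 27, 17.1 and 22.1 CPM (log2 fold change -0.93, SE 0.22, adjusted p = 0.0225), both without overlap. Mief1 (log2 fold change -0.40, adjusted p = 0.023) and Apool (log2 fold change -0.42, adjusted p = 0.0145) fell by less. Opa1 overlapped between groups, at 105–140.2 CPM (median 117) against 108, 91.7, 108 and 87.2 CPM (log2 fold change -0.27, adjusted p = 0.15), and so did Dnm1l, at 38–51.8 CPM (median 45.6) against 46.3, 44.1, 46.6 and 45.5 CPM (log2 fold change 0.01, adjusted p = 0.962).

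At contacts with the endoplasmic reticulum, 2 of 26 tested genes rose (0 to 6) and 2 fell (1 to 2), with a median of 0.11. These counts were close to the 5.23% and 4.64% of all genes called higher and lower. Among those that rose was Mcu, the pore of the mitochondrial calcium uniporter, from 14 ± 1.38 to 19.9 ± 4.01 CPM (log2 fold change 0.50, adjusted p = 0.0366). Osbpl5, a lipid transfer protein, fell from a control range of 6.75–16.4 CPM (median 10.2) to 4.79, 2.67, 3.71 and 4.08 CPM (log2 fold change -1.46, SE 0.25, adjusted p = 0.00439), and Bcap31 fell by less (log2 fold change -0.45, adjusted p = 0.0401). In phospholipid synthesis and transfer, 2 of 20 genes fell (1 to 4). They were Taz, here the X-linked tafazzin that remodels cardiolipin, from 40.9 ± 1.22 to 28.9 ± 2.07 CPM (log2 fold change -0.50, adjusted p = 0.00333), and Ptdss1, a phosphatidylserine synthase, from 75.4 ± 3.68 to 47.8 ± 6.23 CPM (log2 fold change -0.66, adjusted p = 0.0157).

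Genes of mitophagy and autophagy were lower in part: 9 of 30 tested fell (2 to 9) and 0 rose (0 to 1), with a median of -0.23. With library size alone, 2 fell and 3 rose and the median was -0.03, so the direction of this list rested on the scaling. The count fell below 6 without control replicates 2 and 6, at 5 and 4, and without Mfn DKO replicates 1 to 4, at 5, 2, 4 and 3. Bnip3, a mitophagy receptor, went from a control range of 90.1–128 CPM (median 106) to 61.8, 51.4, 57.3 and 49.2 CPM. Bnip3 had a log2 fold change of -0.97 (SE 0.22, adjusted p = 0.0191). Its relative Bnip3l fell by -0.45 on the log2 scale (adjusted p = 0.0117), the mitophagy receptor Fkbp8 by -0.52 (adjusted p = 0.0281) and Wipi1, a phagophore protein, by -0.75 (adjusted p = 0.00344). Sqstm1 (p62), the autophagy cargo receptor, did not pass: its levels were 288–334 CPM (median 309) against 405, 447, 398 and 428 CPM, without overlap. Sqstm1 had a log2 fold change of 0.43 (SE 0.23, adjusted p = 0.24).

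The cell cycle was the list with the largest share of called genes among those examined here. Of 28 tested members, 20 rose (11 to 23) and 0 fell (0 to 0), all 28 had a log2 fold change above 0, and the median was 1.65. The groups did not overlap in 23 of them (8.95% of all genes had such a rise). The count was 11 without Mfn DKO replicate 4, the liver with the highest level of several of these genes. Absolute levels were low: Mki67, the Ki-67 antigen of dividing cells, was at 1.81–3.06 CPM (median 2.68) in the controls and 12.1, 8.43, 8.13 and 22.7 CPM in the Mfn DKO livers. Mki67 had a log2 fold change of 2.32 (SE 0.27, adjusted p = 4.48e-04). Top2a, the topoisomerase of mitosis and replication, went from a control range of 0.944–3.53 CPM (median 2.1) to 9.68, 8.14, 8.51 and 19.1 CPM (log2 fold change 2.4, SE 0.34, adjusted p = 0.00152), and Cdc20, an activator of the anaphase-promoting complex, from a control range of 0.228–0.991 CPM (median 0.538) to 2.9, 3.07, 3.29 and 9.96 CPM. Cdc20 had a log2 fold change of 2.97 (SE 0.44, adjusted p = 0.00189). The cyclins Ccnb2 (log2 fold change 1.84, adjusted p = 0.00231), Ccna2 (log2 fold change 2.19, adjusted p = 0.00349) and Ccnb1 (log2 fold change 2.68, adjusted p = 0.00545), the kinases Cdk1 (log2 fold change 1.99, adjusted p = 0.00381) and Aurkb (log2 fold change 2.41, adjusted p = 0.00301), and the replication helicase subunit Mcm6 (log2 fold change 1.7, adjusted p = 0.0179) rose as well. The Tfam KO livers, set against the same controls, had a median of 0.99 for this list; 0 of its members differed between the knockouts.

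Promoters of mitotic genes often hold the cell cycle homology region, TTTGAA, at which the DREAM and MuvB complexes act. These 6 letters were present on either strand in 17.9% of all windows of 300 bases (20.2% of their genes) and in the windows of 7 of the 17 called members that had one (41.2%). As examples, 250 bases before the start are given for Cdk1 at chr10:69352913-69353162, minus strand and Cdc20 at chr4:118437344-118437593, minus strand, 5′ to 3′ on the gene's strand, with each match in capitals.
Cdk1: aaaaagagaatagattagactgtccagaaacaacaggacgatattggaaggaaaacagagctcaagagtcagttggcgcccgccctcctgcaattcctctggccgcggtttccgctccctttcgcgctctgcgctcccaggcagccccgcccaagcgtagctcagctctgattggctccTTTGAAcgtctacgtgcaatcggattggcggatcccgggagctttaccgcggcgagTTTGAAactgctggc
Cdc20: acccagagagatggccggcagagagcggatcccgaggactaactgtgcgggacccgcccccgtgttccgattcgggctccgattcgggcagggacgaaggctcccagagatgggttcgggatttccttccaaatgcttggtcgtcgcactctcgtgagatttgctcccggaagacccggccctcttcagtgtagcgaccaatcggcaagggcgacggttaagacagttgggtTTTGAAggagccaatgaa

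Genes of growth arrest and damage moved alongside. Of 22 tested p53 targets, 5 rose (3 to 9) and 0 fell (0 to 0), with a median of 0.52. The count was 3 without control replicate 3, 4 or 6 or Mfn DKO replicate 1, 2 or 4, and 9 without Tfam KO replicate 2 or 3. Cdkn1a (p21), which halts the cell cycle, went from a control range of 1.41–9.1 CPM (median 2.45) to 29.8, 19, 21.5 and 74.4 CPM. Cdkn1a had a log2 fold change of 3.36 (SE 0.63, adjusted p = 0.00722). Gadd45a, a stress gene of growth arrest, went from a control range of 5.07–8.79 CPM (median 7.31) to 28.5, 26.5, 30.0 and 26.1 CPM with little spread. Gadd45a had a log2 fold change of 1.94 (SE 0.17, adjusted p = 5.87e-05). Eda2r (log2 fold change 2.04, adjusted p = 0.0152), Trp53inp1 (log2 fold change 0.88, adjusted p = 0.0325) and the death receptor Tnfrsf10b (log2 fold change 2.11, adjusted p = 0.0428) rose too. In the BCL2 family, the pro-death activator Hrk rose from a control range of 0.129–0.447 CPM (median 0.318) to 3.68, 3.36, 3.71 and 5.13 CPM (log2 fold change 3.72, SE 0.40, adjusted p = 3.50e-04), and Bmf, another pro-death member, fell from a control range of 14.3–47.3 CPM (median 27.4) to 7.5, 8.15, 6.88 and 7.44 CPM (log2 fold change -1.92, SE 0.53, adjusted p = 0.0377), the only 2 called of 16. Among 11 ligands and receptors of the EGF family, 2 rose (1 to 2): Areg (amphiregulin), a growth factor of injured liver, from 0 to 0.0822 CPM to 7.09, 20.5, 9.96 and 23 CPM (adjusted p = 1.33e-04; so near 0 in the controls that no fold is given), and Btc (betacellulin) from 1.45 ± 0.801 to 3.99 ± 0.605 CPM (log2 fold change 1.46, adjusted p = 0.0344).

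**Figure D3:**
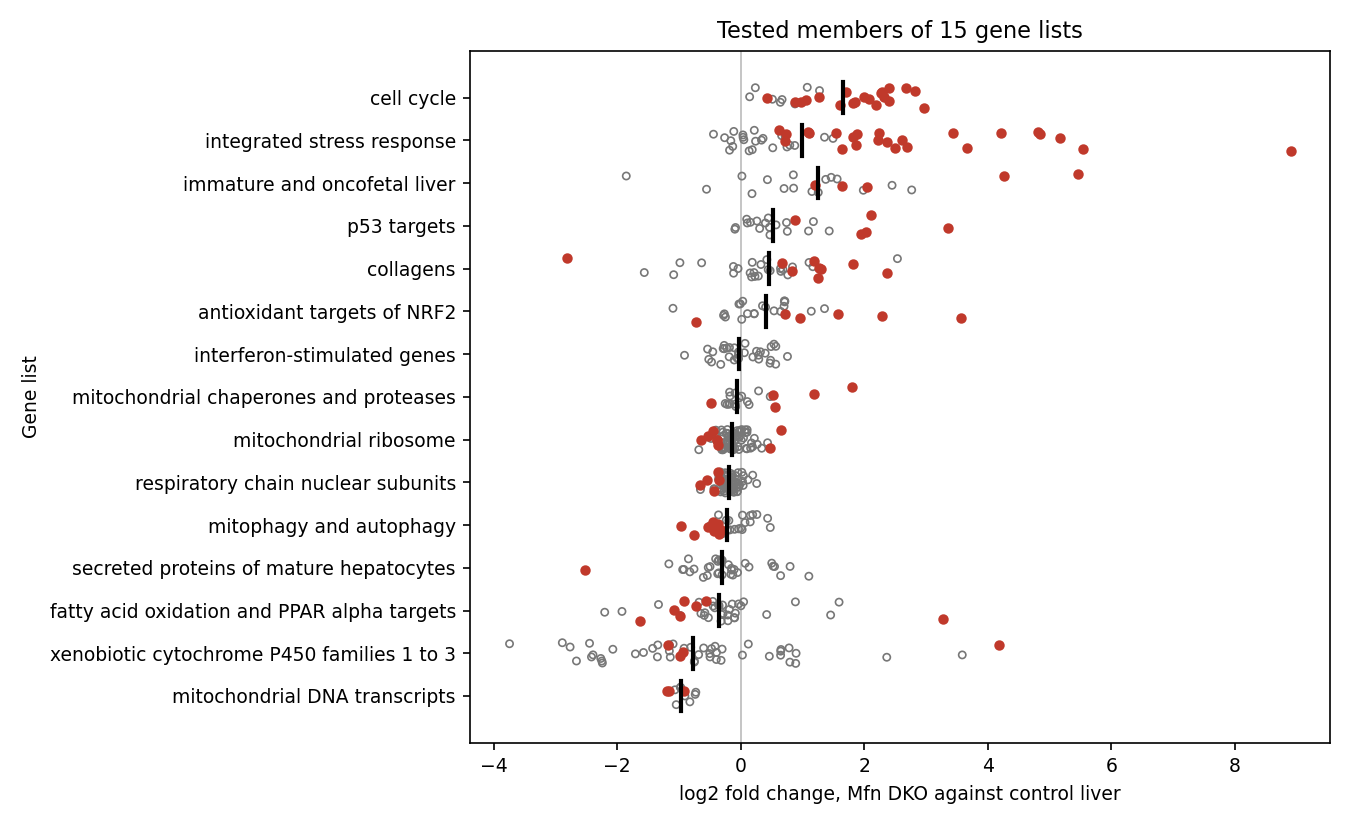
Log2 fold changes of all tested members of 15 gene lists in Mfn DKO against control liver, 1 point per gene. Filled red points passed an adjusted p of 0.05, open points did not, and the vertical bar is the median of the list. The cell cycle and integrated stress response lists lie mostly right of 0, with medians of 1.65 and 0.99, and mitochondrial DNA transcripts lie left of it, with a median of -0.97.

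A few identity genes of the hepatocyte were called. Of 24 transcription factors of hepatocytes, 3 fell (1 to 6) and 0 rose (0 to 0), with a median of -0.21 that was -0.02 with library size alone. The 3 are 12.5% of the list, beside 4.64% of all genes called lower and 9.87% called in either direction. Foxa1 and Foxa2, pioneer factors of the liver, went from a control range of 19.3–34 CPM (median 21.1) to 15.5, 12.3, 15.5 and 11.6 CPM (log2 fold change -0.75, SE 0.17, adjusted p = 0.0183) and from a control range of 29.6–60.6 CPM (median 40.5) to 20.6, 22.1, 27.6 and 26.7 CPM. Foxa2 had a log2 fold change of -0.86 (SE 0.21, adjusted p = 0.0235). Creb3l3 (CREBH), which drives fasting genes, went from a control range of 337–419 CPM (median 391) to 241, 215, 233 and 235 CPM. Creb3l3 had a log2 fold change of -0.74 (SE 0.11, adjusted p = 0.00149). Hnf4a, at 749–1039.6 CPM (median 890.2) against 921, 702, 823 and 779 CPM, overlapped and was not called (log2 fold change -0.14, adjusted p = 0.714), nor was Cebpa, at 553–749 CPM (median 637) against 467, 442, 614 and 375 CPM (log2 fold change -0.45, adjusted p = 0.445). Of 34 secreted proteins of mature hepatocytes, 1 fell (0 to 8), Serpina3k, from a control range of 4225–10649.9 CPM (median 7253) to 1806, 1025, 1447 and 852 CPM. Serpina3k had a log2 fold change of -2.52 (SE 0.63, adjusted p = 0.0261). The list of secreted proteins had 2.94% of its genes called, under the share of all genes. Its median was -0.31, which was -0.12 with library size alone, and 8 of its 34 genes lay above 0. The groups did not overlap in 14 of the 34, beside 19.2% of all genes. Without Tfam KO replicate 2, 8 fell and 3 rose, beside 9.95% and 9.56% of all genes. Alb, albumin, was at 82091 ± 18669.8 in control and 64238 ± 7107 CPM in Mfn DKO liver (log2 fold change -0.35, adjusted p = 0.574).

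Genes of fetal liver and liver tumours were partly higher. Of 21 tested members of that list, 5 rose (1 to 11) and 0 fell (0 to 0), with a median of 1.25. The count was 1 and 2 without Mfn DKO replicates 2 and 4, 3 without control replicate 2 or 6, and 11 without Tfam KO replicate 2. H19, an imprinted RNA of fetal liver, ranged over 0.211–7.09 CPM (median 2.28) in the controls and 52.6, 299, 54.5 and 137 CPM in the Mfn DKO livers. H19 had a log2 fold change of 5.46 (SE 1.26, adjusted p = 0.0192). Lpl, the lipoprotein lipase, went from a control range of 14–23.2 CPM (median 15.2) to 42, 118, 30.1 and 90.2 CPM (log2 fold change 2.05, SE 0.48, adjusted p = 0.0209) and Scd2, a desaturase of young liver, from a control range of 5.64–7.58 CPM (median 6.41) to 11.5, 33.7, 14.1 and 21.8 CPM. Scd2 had a log2 fold change of 1.63 (SE 0.27, adjusted p = 0.00333). For all 3, both Mfn DKO livers with Xist stood above both without it. Anxa2 (log2 fold change 1.21, adjusted p = 0.0378) and Bex2 (log2 fold change 4.27, adjusted p = 0.024) rose as well. Afp, alpha-fetoprotein, did not pass in the fit of all livers, at 1.07–2.81 CPM (median 1.88) against 5.23, 3.71, 8.35 and 3.22 CPM, although the groups did not overlap (log2 fold change 1.38, SE 1.31, adjusted p = 0.521); Tfam KO replicate 2 held 10783 CPM of it, which widens the shared spread. Krt19, of bile ducts, overlapped, at 0.89–21.4 CPM (median 1.86) against 3.9, 8.25, 7.79 and 2.45 CPM (log2 fold change 0.18, adjusted p = 0.916). All 17 biliary and progenitor genes tested had a log2 fold change above 0, with a median of 0.61. Only the keratin Krt23 was called, from 3.31 ± 1.66 to 17.2 ± 6.61 CPM (log2 fold change 2.38, adjusted p = 0.00986). Without Tfam KO replicate 2, 4 of them rose, beside 9.56% of all genes.

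Zonation and nutrient handling were examined by list. Glul, the glutamine synthetase of cells around the central vein, was at 1327–1905 CPM (median 1449) in the controls and 528, 617, 724 and 1073 CPM in the Mfn DKO livers, without overlap but not called (log2 fold change -1.05, SE 0.36, adjusted p = 0.0809), and Cyp2e1, of the same zone, was at 7619–12038 CPM (median 9236) against 3995, 2621, 4569 and 3738 CPM (log2 fold change -1.34, adjusted p = 0.13). Of 20 pericentral genes 2 fell (0 to 5) and 0 rose (0 to 2), near the 9.87% called among all genes. With library size alone 0 fell and 1 rose, so the direction of the calls turned with the scaling. Among those that fell was Cyp2a5, from 1224 ± 459 to 621 ± 169 CPM (log2 fold change -0.98, adjusted p = 0.0497). Of 20 periportal genes 2 rose (1 to 3) and 0 fell (0 to 4), again near that share, and 3 rose and 4 fell without Tfam KO replicate 2. The median of the list was -0.04, at 0.35 in livers with Xist and -0.43 in those without it. Those that rose were Aldh1b1, a mitochondrial aldehyde dehydrogenase, from a control range of 63.3–91.2 CPM (median 76.5) to 265, 361, 178 and 168 CPM (log2 fold change 1.67, SE 0.20, adjusted p = 5.45e-04), and Tat, tyrosine aminotransferase, from a control range of 962–1794 CPM (median 1384) to 4130.0, 3993, 3386 and 2533 CPM. Tat had a log2 fold change of 1.33 (SE 0.34, adjusted p = 0.0284). Of 29 genes of glucose metabolism 3 fell (1 to 5) and 0 rose (0 to 5), with a median of 0.10, and this share too was near the background. Without Tfam KO replicate 2, 5 rose and 5 fell. The 3 include Slc37a4, the glucose-6-phosphate transporter, from a control range of 228–326 CPM (median 263) to 108, 128, 129 and 122 CPM (log2 fold change -1.15, SE 0.29, adjusted p = 0.0274), and Pfkfb3, a regulator of glycolysis, from 30.5 ± 12 to 12.3 ± 4.71 CPM (log2 fold change -1.31, adjusted p = 0.0242). Pck1 (log2 fold change 0.29, adjusted p = 0.619) and G6pc (log2 fold change -0.04, adjusted p = 0.95), control enzymes of glucose output, were not called. In the citric acid cycle, Mdh2 (log2 fold change 0.73, adjusted p = 0.0407) and Idh2 (log2 fold change 0.46, adjusted p = 0.0302) were among 3 of 25 genes that rose (0 to 4), and Pdk1, a brake on pyruvate dehydrogenase, was the 1 that fell (log2 fold change -1.07, adjusted p = 0.0352). The carrier Slc25a39, which brings glutathione into mitochondria, rose from 416 ± 27.5 to 678 ± 106 CPM (log2 fold change 0.70, adjusted p = 0.0134) as 1 of 3 of 44 carriers to do so (1 to 6), while 3 fell (0 to 9), with a median of -0.15 that was 0.05 with library size alone.

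Genes of fatty acid oxidation were lower in part. Of 39 genes of fatty acid oxidation and PPAR alpha targets, 6 fell (1 to 15) and 1 rose (1 to 3), with a median of -0.35. The lower count was 1 without Mfn DKO replicate 1 or 2, 3 without Mfn DKO replicate 3 or 4 or control replicate 6, and 15 and 12 without Tfam KO replicates 2 and 3. Eci1 and Acaa2, enzymes of beta oxidation, went from a control range of 181–261 CPM (median 229) to 111, 94.6, 121 and 128 CPM (log2 fold change -0.99, SE 0.14, adjusted p = 0.00149) and from a control range of 1348–1695 CPM (median 1630.4) to 879, 747, 847 and 875 CPM. Acaa2 had a log2 fold change of -0.92 (SE 0.21, adjusted p = 0.0171). Fabp1, the fatty acid binding protein of liver, went from a control range of 3442–6895 CPM (median 5243) to 1555, 1469, 1736 and 1838 CPM. Fabp1 had a log2 fold change of -1.63 (SE 0.40, adjusted p = 0.0258). The 1 that rose was Cyp4a31, a fatty acid hydroxylase of a family with close relatives, from 5.23 ± 3.7 to 50.8 ± 23.6 CPM (log2 fold change 3.27, adjusted p = 0.00946), and Cpt1a, which admits fatty acids to mitochondria, was not called (log2 fold change -0.10, adjusted p = 0.681). Of 22 lipoprotein genes, Apoa4 rose from a control range of 21.8–36.4 CPM (median 30.3) to 82, 85.1, 87.8 and 85.5 CPM (log2 fold change 1.53, SE 0.25, adjusted p = 0.00348) and Lipc, hepatic lipase, fell from a control range of 187–293 CPM (median 217) to 56.6, 52.3, 96 and 91.8 CPM. Lipc had a log2 fold change of -1.65 (SE 0.41, adjusted p = 0.0254). The synthesis genes Srebf1 (log2 fold change -0.99, adjusted p = 0.113), Fasn (log2 fold change -0.66, adjusted p = 0.345) and Scd1 (log2 fold change -0.29, adjusted p = 0.809) and the droplet coat gene Plin2 (log2 fold change -0.05, adjusted p = 0.951) were not called. Of 24 genes of fatty acid and triglyceride synthesis, 1 rose (1 to 3) and 0 fell (0 to 3). For the list of cholesterol synthesis and uptake, whose median was 0.19, edgeR called 0 of 25, with 3 at an unadjusted p under 0.05 and 2 called by DESeq2. The median was -0.13 in livers with Xist and 0.60 in livers without it. The test of a difference between the classes, described below, called 2 members of this list.

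Detoxification and bile acid genes held calls in both directions. Of 50 cytochrome P450 genes of families 1 to 3, 3 fell (0 to 15) and 1 rose (1 to 2), with a median of -0.78. These counts are near or under the 4.64% and 5.23% of all genes called lower and higher. Cyp2d10 went from a control range of 632–910.3 CPM (median 847) to 338, 365, 374 and 381 CPM. Cyp2d10 had a log2 fold change of -1.17 (SE 0.32, adjusted p = 0.0387). Without Tfam KO replicate 2, 15 fell and 2 rose, beside 9.95% and 9.56% of all genes. Of 52 conjugating enzymes, 6 rose (1 to 7) and 6 fell (1 to 14): the glutathione transferase Gstm3 rose from 11.7 ± 3.97 to 34.9 ± 7.64 CPM (log2 fold change 1.58, adjusted p = 0.00675) and Gstt1 fell from 344 ± 48.6 to 154 ± 15.7 CPM (log2 fold change -1.16, adjusted p = 0.0433). For conjugating enzymes the higher count fell to 1 without Mfn DKO replicate 2 and the lower count to 1 without Mfn DKO replicate 1, while 14 were lower without Tfam KO replicate 2. Members of these families share sequence, so counts can pass between relatives. Of 27 antioxidant targets of NRF2, 5 rose (2 to 8) and 1 fell (0 to 2), and the higher count was 2 without control replicate 6 or Mfn DKO replicate 1 or 3 and 8 without Tfam KO replicate 2. Among them were Hmox1, heme oxygenase, from 23.6 ± 4.19 to 46.1 ± 9.69 CPM (log2 fold change 0.96, adjusted p = 0.013), Gclc, of glutathione synthesis, from 207 ± 17.8 to 339 ± 69.5 CPM (log2 fold change 0.71, adjusted p = 0.0232), and Nqo1 not called (log2 fold change 0.70, adjusted p = 0.183). Of 27 bile acid genes, Cyp27a1, a sterol hydroxylase of mitochondria, fell from a control range of 335–565 CPM (median 456) to 191, 170.1, 182 and 183 CPM (log2 fold change -1.32, SE 0.26, adjusted p = 0.00924) and the export pump Abcc4 rose from 4.23 ± 4.04 to 20.8 ± 10.7 CPM (log2 fold change 2.29, adjusted p = 0.0406), while Cyp7a1, the rate-limiting enzyme, was at 186 ± 42.1 against 203 ± 99.7 CPM (log2 fold change 0.12, adjusted p = 0.92).

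Among stress and immune lists, 3 of 23 genes of the endoplasmic reticulum unfolded protein response rose (0 to 3) and 0 fell (0 to 5). Those that rose were Derl1 (log2 fold change 0.62, adjusted p = 0.0248), Atf6 (log2 fold change 0.53, adjusted p = 0.0475) and Ern1 (log2 fold change 0.60, adjusted p = 0.0499). The 3 are 13% of the list, beside 5.23% of all genes called higher. Derl1, Atf6 and Ern1 lost their calls in 4, 9 and 10 of the 13 fits that each left out 1 liver. The chaperone Hspa5 (BiP), the usual marker of that response, overlapped, at 662–1439.6 CPM (median 921) against 672, 889, 731 and 577 CPM (log2 fold change -0.48, adjusted p = 0.202). The median of the list was -0.36, which was -0.17 with library size alone, and only 4 of the 23 lay above 0. Without Tfam KO replicate 2, 5 fell and 3 rose, beside 9.95% and 9.56% of all genes. Among 33 interferon-stimulated genes edgeR called 0 (0 to 0), with 0 at an unadjusted p under 0.05 and 0 by DESeq2, and Isg15 was at 17 ± 6.17 against 14.1 ± 3.26 CPM. Of 26 acute phase genes, 2 rose (2 to 4), which is 7.69% and near the 5.23% of all genes called higher. Apcs (serum amyloid P) rose from a control range of 41.5–176 CPM (median 91) to 1172, 755, 1073 and 628 CPM (log2 fold change 3.21, SE 0.58, adjusted p = 0.00588). Il1rn, the interleukin 1 receptor antagonist, rose from 3.23 ± 1.37 to 9.23 ± 2.18 CPM (log2 fold change 1.51, adjusted p = 0.0126). Lcn2 was at 2.56–35.9 CPM (median 9.59) against 52.5, 41.3, 17.7 and 243 CPM (log2 fold change 2.81, adjusted p = 0.0577) and Saa1 at 37.6–822 CPM (median 91.8) against 60.8, 41, 15 and 542 CPM (log2 fold change -0.37, adjusted p = 0.885), neither called, with Mfn DKO replicate 4 highest of its group for both. In the growth hormone axis, Igfbp1, an IGF binding protein of fasting and stress, rose from a control range of 15.6–77 CPM (median 58.5) to 532, 387, 194 and 819 CPM (log2 fold change 3.19, SE 0.59, adjusted p = 0.00674), Cish, a growth hormone target, fell from 19.5 ± 9.4 to 7.12 ± 1.42 CPM (log2 fold change -1.45, adjusted p = 0.0151) and Igf1 was not called (log2 fold change -0.45, adjusted p = 0.458).

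Markers of hepatocytes and of other liver cells were examined next. Of 8 hepatocyte genes edgeR called 0, with 4 at an unadjusted p under 0.05 and 3 called by DESeq2. Their median was -0.44, which was -0.25 with library size alone, and 2 of the 8 lay above 0. The groups did not overlap in 5 of the 8, beside 19.2% of all genes. Without Tfam KO replicate 2, 4 fell and 1 rose, beside 9.95% and 9.56% of all genes. The summed level of 17 macrophage and Kupffer cell genes was 707 to 1315 CPM in the controls and 1288, 1528, 971 and 2035 CPM in Mfn DKO replicates 1 to 4, and the ranges overlapped. All 17 had a log2 fold change above 0, with a median of 0.56. Of the 17, 4 rose (2 to 6) and 0 fell (0 to 0), beside 5.23% of all genes called higher: Marco, a scavenger receptor, from a control range of 6.3–19.6 CPM (median 14.7) to 83.9, 127, 46 and 78.9 CPM (log2 fold change 2.6, SE 0.36, adjusted p = 0.00144), Gpnmb, a gene of lipid-laden macrophages, from a control range of 0–0.454 CPM (median 0.215) to 4.81, 4.02, 11.6 and 2.28 CPM (log2 fold change 4.68, SE 1.11, adjusted p = 0.0215), Cd9 (log2 fold change 1.02, adjusted p = 0.0276) and Ccr2 (log2 fold change 0.91, adjusted p = 0.0417). Macrophages divide too, and the part of these cells in the cell cycle values above was not tested. Of 15 stellate cell and myofibroblast genes, 3 rose (2 to 7) and 0 fell (0 to 0), and 13 had a log2 fold change above 0, with a median of 0.41. They were Rgs5, Col1a1 and Col1a2, and 7 rose without Tfam KO replicate 2 and also with library size alone. Of 11 endothelial genes 1 rose (0 to 1). All 7 cholangiocyte genes tested lay above 0, with a median of 0.57, but edgeR called 0 of them, with 1 at an unadjusted p under 0.05 and 0 called by DESeq2. Stellate cell genes summed to 485 to 634 CPM in control and 541 to 729 CPM in Mfn DKO liver, endothelial genes to 331 to 382 and 336 to 495 CPM, cholangiocyte genes to 50.1 to 81.2 and 72.1 to 120.3 CPM, and lymphocyte genes to 12.2 to 17.4 and 9.76 to 18.9 CPM. Of 34 collagen genes, 8 rose (5 to 11) and 1 fell (1 to 1). The higher count was 5 without Mfn DKO replicate 2 or 4. Col4a1 went from a control range of 20.6–28.3 CPM (median 22.8) to 59.7, 52.6, 67.8 and 47.1 CPM (log2 fold change 1.26, SE 0.23, adjusted p = 0.00694), its partner Col4a2 from 15.9 ± 1.85 to 39.2 ± 8.02 CPM (log2 fold change 1.31, adjusted p = 0.00731) and Col1a1 from 4.89 ± 1.19 to 11.8 ± 1.97 CPM (log2 fold change 1.27, adjusted p = 0.00857), whereas Col27a1 fell from a control range of 59.7–202 CPM (median 133) to 26.7, 12.5, 18.2 and 15.8 CPM. Col27a1 had a log2 fold change of -2.81 (SE 0.55, adjusted p = 0.00924). Of 8 pancreatic genes, 3 had no count in any liver, and the sum was 11.7 to 87.7 CPM in control and 8.35 to 15.7 CPM in Mfn DKO liver, nearly all of it Cela1.

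The steepest increases among genes of at least 5 CPM without overlap included several that liver hardly expresses. Vmn2r3, of the vomeronasal receptor family, was at 0–2.19 CPM (median 0.159) in the controls and 268, 274, 429 and 118 CPM in the Mfn DKO livers. Vmn2r3 had a log2 fold change of 9.24 (SE 1.21, adjusted p = 9.45e-04). It belongs to a multigene family, and control replicate 6 was the highest of the controls, at 2.19 CPM. Spink1, a trypsin inhibitor also made by liver tumours, went from a control range of 0–0.199 CPM (median 0.11) to 6.25, 8.08, 8.53 and 5.48 CPM (log2 fold change 6.15, SE 0.72, adjusted p = 4.98e-04), Tenm4, a teneurin, from a control range of 0.106–0.398 CPM (median 0.166) to 7.96, 21.1, 15.8 and 9.56 CPM (log2 fold change 6.04, SE 0.71, adjusted p = 4.98e-04), Tuba8, a tubulin, from a control range of 0.0456–0.84 CPM (median 0.389) to 17.3, 20.3, 19 and 12.7 CPM (log2 fold change 5.3, SE 0.59, adjusted p = 3.88e-04), and Wfdc3 from a control range of 0–0.302 CPM (median 0.208) to 6.25, 17.4, 6.37 and 2.52 CPM. Wfdc3 had a log2 fold change of 5.51 (SE 0.85, adjusted p = 0.00236). Areg, Asns, H19, Nupr1, Psat1 and Fgf21, given above, and Eno1b, given below, complete the 12.

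Among the 12 steepest decreases, 5 were major urinary protein genes, a family of near-identical copies that male liver secretes, and the serpins Serpina4-ps1 and Serpina12 were 2 more. Their levels split by Xist class among the controls. Mup3 was at 14078, 13128 and 11756 CPM in the control livers without Xist and at 3398, 3597 and 1253 CPM in those with it. In Mfn DKO livers it was at 902 and 918 CPM without Xist and 288 and 598 CPM with it. On the log2 scale Mup3 changed by -3.85 without Xist (adjusted p = 3.04e-04) and by -2.62 with it (adjusted p = 0.00302). Over all livers its change was -3.54 (adjusted p = 0.038). The 12 genes were chosen as called and without overlap between the groups in these same livers. A lower level in both classes was fixed by that choice and is not further support. Mup15 (log2 fold change -4.72, adjusted p = 0.0317), Mup17 (log2 fold change -4.59, adjusted p = 0.0294), Mup18 (log2 fold change -3.16, adjusted p = 0.0272) and Mup19 (log2 fold change -5.01, adjusted p = 0.0175) fell too, and Serpina12 (vaspin) went from a control range of 1.89–41.6 CPM (median 20.5) to 0.551, 0.58, 1.19 and 0.70 CPM. Serpina12 had a log2 fold change of -4.8 (SE 1.24, adjusted p = 0.0306). Cnmd (chondromodulin), at 2.14–13.6 CPM (median 5.68) in the controls and 1.06, 0.348, 0.807 and 0.841 CPM in the Mfn DKO livers (log2 fold change -3.17, adjusted p = 0.0331), was likewise higher in the controls without Xist. AL590864.1, which has no position in the annotation used, was so too, at 3.06–29.7 CPM (median 11.5) in the controls and 2.63, 0.386, 1.23 and 0.981 CPM in the Mfn DKO livers (log2 fold change -3.37, adjusted p = 0.0358). Serpina4-ps1 was at 4.37–222 CPM (median 35) in the controls and 0.0847, 0.0193, 0.161 and 0.0876 CPM in the Mfn DKO livers (adjusted p = 0.00472). In livers without Xist its highest Mfn DKO value was 0.161 CPM and its lowest control value 58.8 CPM.

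The other steep decreases did not follow Xist in this way. Prok1, a prokineticin, went from a control range of 4.65–11.4 CPM (median 7.49) to 1.1, 0.29, 0.625 and 0.70 CPM (log2 fold change -3.53, SE 0.71, adjusted p = 0.0106), Lrit2 from a control range of 5.66–11.3 CPM (median 9.18) to 0.678, 0.56, 0.605 and 0.455 CPM (log2 fold change -3.97, SE 0.74, adjusted p = 0.00682), and Hectd2os, named as an antisense RNA and counted with no stated strand setting, from a control range of 5.22–15 CPM (median 12.7) to 0.36, 0.87, 0.182 and 0.508 CPM. Hectd2os had a log2 fold change of -4.56 (SE 0.60, adjusted p = 9.45e-04). The list of sex-biased genes had 40 tested members, of which 1 was called (2.5%, beside 9.87% of all genes). Its 19 genes higher in males had a median of -1.43, and its 21 tested genes higher in females had a median of -1.37 with 0 called. These medians mix 2 unlike classes. For genes higher in males the median was -0.58 in livers with Xist and -1.69 in livers without it. For genes higher in females it was -1.26 with Xist and 0.71 without it. The test of a difference between the classes, described below, called 4 members of the list. Of the other known sex-biased genes, Cyp2d9, at -2.66, Hsd3b5, at -3.04, and Cyp2b13, at -2.27 on the log2 scale, did not pass over all livers (adjusted p = 0.202, 0.345 and 0.537). Within classes, Cyp2d9, male-biased, fell by -2.7 without Xist (adjusted p = 4.13e-04) and by -2.29 with it (adjusted p = 0.00178).

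A direct test of whether the effect differed between livers with and without Xist called 17 of 16080 genes (0.106%), with 1192 at an unadjusted p under 0.05, from 3 and 2 livers a class. Apcs rose by 2.29 on the log2 scale with Xist and 4.39 without it (difference -2.1, SE 0.30, adjusted p = 0.0389). Sqle, of cholesterol synthesis, differed by 0.37 with and 2.26 without (adjusted p of the difference = 0.0498), and Cyp2f2, a periportal P450, by -0.18 with and -1.82 without (adjusted p of the difference = 0.0498).

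Genes close to Mfn2 were called more often than genes elsewhere. This window was chosen after the values were seen. Of 95 other genes tested that start within 5 Mb of the start of Mfn2 on chromosome 4, 27 were called (28.4%, against 9.87% of all genes and 10.9% of the rest of that chromosome), 10 higher and 17 lower. Within 2 Mb the share was 30.2% of 53 genes and within 10 Mb 16.7% of 221. Around Mfn1, on chromosome 3, 5 of 51 genes within 5 Mb were called (9.8%), and around Tfam, on chromosome 10, 5 of 53 (9.43%). In the Tfam KO livers, against the same controls, 28.4% of the genes within 5 Mb of Mfn2 were called, beside 29.3% of all genes. What moves these genes was not tested. Of the 1681 called genes, 1653 lie outside the window of 5 Mb, which also holds Mfn2 itself. No new fit was made for that count.

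Several of these neighbours were near 0 in all 4 Mfn DKO livers or in all controls. Zfp982, a zinc finger gene of a family with close copies, was at 1.21–5.41 CPM (median 3.18) in the controls and 0.0212, 0, 0 and 0 CPM in the Mfn DKO livers, at least 55.3-fold lower against a floor of 3 counts (adjusted p = 6.40e-04). Zfp984 went from a control range of 1.59–2.93 CPM (median 2.47) to 0.169, 0.174, 0.262 and 0.315 CPM (log2 fold change -3.3, SE 0.30, adjusted p = 8.22e-05) and Fbxo44, an F-box gene, from a control range of 1.48–3.35 CPM (median 2.12) to 0.127, 0.193, 0.161 and 0.21 CPM. Fbxo44 had a log2 fold change of -3.63 (SE 0.46, adjusted p = 7.08e-04). Zfp990 moved the other way, from 0 to 0.0205 CPM in the controls to 0.466, 0.271, 0.161 and 0.508 CPM (adjusted p = 0.0012), and Angptl7 from a control range of 0.713–1.31 CPM (median 0.806) to 2.73, 3.9, 2.86 and 4.73 CPM. Angptl7 had a log2 fold change of 1.95 (SE 0.24, adjusted p = 6.00e-04). Eno1, the glycolytic enolase, lies in the same window (chr4:150236721-150248879, plus strand) and went from a control range of 379–437 CPM (median 425) to 236, 254, 241 and 268 CPM (log2 fold change -0.73, SE 0.12, adjusted p = 0.00322), while Eno1b, a near-identical copy on chromosome 18, went from a control range of 0.106–0.795 CPM (median 0.282) to 57.9, 66, 63.1 and 70.4 CPM. Eno1b had a log2 fold change of 7.55 (SE 0.34, adjusted p = 1.27e-07). Reads can pass between the 2 copies, so their assignment is uncertain, and the summed level was 415 ± 22.7 CPM in control (SD, n = 6), 314 ± 19.4 CPM in Mfn DKO (SD, n = 4) and 475 ± 79.1 CPM in Tfam KO liver (SD, n = 3). These genes, apart from Eno1b, were chosen after their values were seen.

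**Figure D4:**
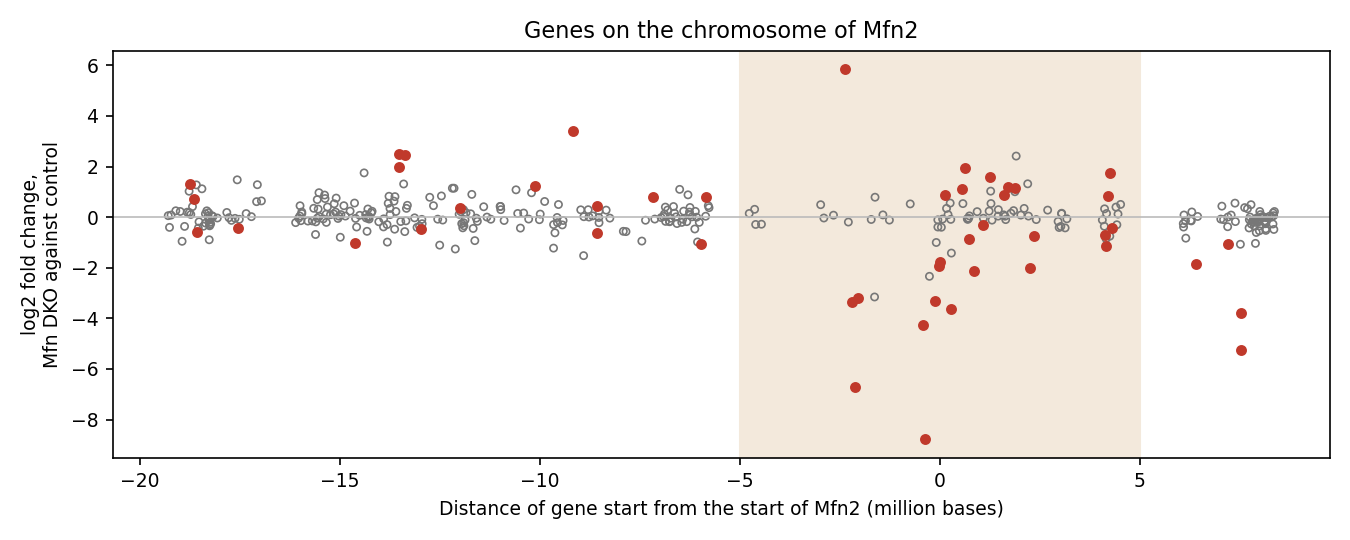
Log2 fold change in Mfn DKO against control liver of the genes tested within 20 Mb of Mfn2, by the distance of their start from the start of Mfn2 in megabases (Mb); Mfn2 itself is left out. Filled red points were called, and the shaded band is 5 Mb to each side, in which 27 of 95 genes were called.

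The Mfn DKO and Tfam KO livers were then compared directly, which leaves the shared controls out of the contrast. At an adjusted p of 0.05 or less, 50 of 17024 genes differed (0.294%), 32 higher (0.188%) and 18 lower (0.106%) in the Mfn DKO livers. The 3 Tfam KO livers varied widely among themselves: the count was 4204 without Tfam KO replicate 3, 49 without Tfam KO replicate 2, 24, 29 and 32 without Mfn DKO replicates 1, 3 and 4, and 7 when only these 2 groups were fitted. A small count here does not show that the knockouts act alike.

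The targeted genes separated as labelled. Mfn1 was lower in Mfn DKO than in Tfam KO liver by -2.09 on the log2 scale (SE 0.16, adjusted p = 4.04e-05) and Mfn2 by -1.73 (SE 0.17, adjusted p = 3.65e-04), while Tfam was higher by 1.91 (SE 0.11, adjusted p = 4.11e-06). Of the 11 tested protein genes of mitochondrial DNA, 9 were higher in the Mfn DKO livers. mt-Nd4 was at 1200.0, 1320.2, 1557 and 1555 CPM in Mfn DKO and 60.7, 216 and 66.6 CPM in Tfam KO liver (difference 3.62, adjusted p = 0.00155). mt-Cytb was higher by 3.93 (adjusted p = 6.72e-04), mt-Co1 by 3.35 (adjusted p = 0.0021), mt-Nd5 by 3.79 (adjusted p = 0.00537) and mt-Nd6 by 3.52 (adjusted p = 0.00366). Of genes within 10 Mb of Mfn2, 10 differed, among them Eno1 (-0.93, adjusted p = 0.00855), Plod1, a collagen-modifying enzyme (-0.98, adjusted p = 0.0109), and Arhgef16 (-3.11, adjusted p = 0.0236), and Eno1b was higher by 7.1 (adjusted p = 4.65e-06).

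Other named genes differed too. Aldh1l2, the folate enzyme that was not called against control, was at 0.932, 0.928, 0.847 and 0.788 CPM in Mfn DKO and 13.2, 52.1 and 1.25 CPM in Tfam KO liver (difference -4.67, SE 0.87, adjusted p = 0.0449), the only member of the integrated stress response list to differ. Dlg2, a scaffold protein, was at 0.212, 0.155, 0.383 and 0.245 CPM and 7.34, 11.1 and 0.492 CPM (difference -4.66, adjusted p = 0.0129), and Emp1 at 2.63, 3.34, 2.28 and 1.89 CPM and 7.13, 10.3 and 4.47 CPM (difference -1.53, adjusted p = 0.0359). Rab6b, chosen after its values were seen, was at 1.23–2.16 CPM (median 1.88) in control, 0.0424, 0.0386, 0 and 0.035 CPM in Mfn DKO and 1.64, 1.91 and 1.97 CPM in Tfam KO liver (difference -5.86, adjusted p = 2.97e-05). Against the same controls, the median of the integrated stress response list was 0.99 in Mfn DKO and 1.73 in Tfam KO liver, that of p53 targets 0.52 and 1.41, and that of mitochondrial DNA transcripts -0.97 and -4.32. Fgf21 was 4.82 and 4.13, Asns 5.54 and 5.93 and Atf4 0.22 and 0.96 on the log2 scale, and none of these 3 passed the test between the knockouts (adjusted p = 0.558, 0.808 and 0.118).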

How the data were processed

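Bulk RNA sequencing of 6 control, 4 Mfn DKO and 3 Tfam KO livers was analysed. The authors deposited, per the file headers, read counts, TPM and CPM for 55487 features of each liver. The submitters' processing notes name STAR 2.6.1b, RSEM 1.3.1, featureCounts and GRCm38, without saying which step made which column; strand settings are not given in the sources used here. The deposited counts were tested. Of the identifiers, 55227 were in GENCODE release 21 for mouse.

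Genes were kept by filterByExpr, scaled by TMM and fitted in edgeR 4.0.16 (limma 3.58.1, R 4.3.3) with 1 mean for each of the 3 liver groups and no covariate. P-values were adjusted over all genes tested, and values in CPM use TMM-scaled library sizes. DESeq2 1.42.0 was an alternative, as were other scalings, filters, blocks and fits leaving out libraries. The members, gene lists and alternatives were chosen with earlier results of these data known. Named genes are the targeted genes and a set list of key genes, up to 4 members with the smallest p in each list with others where the list's count is given, the 12 called genes per direction with the largest change among those without overlap at 5 CPM or more, and 6 per direction against Tfam KO. On simulated counts of 16707 genes for the comparison with control, 41% of 2-fold and 77.6% of 4-fold changes were called and 4.1% of calls fell on unchanged genes. The labels number biological replicates but do not say how the mice were bred or housed. The counts carry no molecular identifiers, so floors cover counting error only. Promoter sequences are RefSeq's, GRCm38.p6. A few genes that the rule names are not reported here.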

Additional observations from a re-analysis of the deposited data

Results flagged for a closer look

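Single livers stood apart from the rest of their group for 30 of 362 gene-by-group sets of 4 or 6 values, by Dixon's test on the gap to the nearest value. Chance gives about 1 in 20 for normally distributed values. The values here were untransformed CPM from groups that mix both Xist classes, so 30 cannot be set against that rate. Zfp982 and Zfp990, listed below, were flagged for a value near 0 beside others at 0. In Mfn DKO replicate 4 these were high values of Atf3 (27.4 CPM), Il1rn (12.5 CPM), Lcn2 (243 CPM), Saa1 (542 CPM), Cdc20 (9.96 CPM), Top2a (19.1 CPM) and Ccnb1 (4.48 CPM). Slc25a39 (521 CPM) and Ptdss1 (57.1 CPM) stood apart in the same liver. Of the other Mfn DKO livers, replicate 1 stood apart for Eda2r (2.05 CPM), Zfp982 (0.0212 CPM), Cyp2f2 (159.6 CPM) and Igf1 (594 CPM), replicate 2 for Col1a1 (14.7 CPM), and replicate 3 for Apool (27.7 CPM) and Isg15 (9.26 CPM).

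Among the controls, replicate 1 stood apart for Scd1 (2619 CPM), replicate 2 for Saa1 (822 CPM) and Gstt1 (246 CPM), and replicate 3 for Plod1 (54.2 CPM) and Cpt1a (381 CPM). Replicate 4 did so for Zfp990 (0.0205 CPM) and Krt19 (21.4 CPM), and replicate 5 for Lcn2 (35.9 CPM), Abcc4 (12.4 CPM) and Cdkn1a (9.1 CPM). Replicate 6 did so for Vmn2r3 (2.19 CPM), Foxa1 (34 CPM), Serpina4-ps1 (222 CPM) and Eno1b (0.795 CPM).

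The effect of the double knockout differed between livers with and without Xist, by the edgeR interaction test, for Apcs (difference -2.10 with minus without on the log2 scale), Cyp2f2 (1.64) and Sqle (-1.89).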

How the results depend on the processing

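Calls against control numbered 1681 (891 higher, 790 lower) and ranged over 686 to 3379 when 1 library at a time was left out (436 to 1656 higher, 250 to 1723 lower). They were 1148 with no filter on low counts (678 higher, 470 lower), 2009 with library size alone (1653 higher, 356 lower), 2870 with DESeq2's Wald test (1376 higher, 1494 lower) and 4338 when only the 2 groups were fitted (2073 higher, 2265 lower). They were 2201 with Xist as a covariate (1213 higher, 988 lower), 5825 for the mean over both Xist classes (2931 higher, 2894 lower), 4294 with only libraries without Xist (2019 higher, 2275 lower) and 2 with only those with Xist (1 higher, 1 lower), a fit that holds Tfam KO replicate 2. The genes called over all livers kept their sign in every one of these fits in which they were tested. Those fits share livers with the fit that chose the genes, so the kept signs are not independent support. Against Tfam KO, 50 calls (32 higher, 18 lower) ranged over 24 to 4204 (18 to 1765 higher, 6 to 2439 lower) without 1 library. They were 1226 with library size alone (86 higher, 1140 lower), 70 with no filter (36 lower), 27 with at least 10 counts in every library (18 higher, 9 lower), 1065 with DESeq2's Wald test (295 higher, 770 lower), 7 with only the 2 groups (3 higher, 4 lower) and 2 with only libraries with Xist (1 higher, 1 lower). The causes were not tested. Library size alone, the fit of genotype by Xist class with its interaction, and leaving out genes near Mfn2 were chosen after seeing the data. The mitochondrial share differed by -1.66 to -1.38 percentage points without 1 library, with exact permutation p of at most 0.0119, by -1.63 over the counts of other genes and by -1.43 for the 13 protein genes.

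Deviations of same-numbered libraries had a median correlation of 0.09 (lowest -0.34, over 10 pairs), beside -0.045 over 44 pairs of other numbers. These correlations also varied with Xist class, which both sets of pairs mix. The check therefore cannot settle whether the numbers pair the livers. A replicate block called 174 genes against control (117 higher, 57 lower) and 6 against Tfam KO (3 higher, 3 lower).

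Some named genes that were not called changed sign on the log2 scale. With library size alone these were Hnf4a (0.049), Plin2 (0.15), Emp1 (0.013), Tfam (0.10), G6pc (0.15) and Cpt1a (0.094). With only libraries with Xist they were Hspe1 (-0.011), Cyp7a1 (-0.093), Saa1 (1.98), Krt19 (-0.67), G6pc (0.49) and Scd1 (0.42). With only libraries without Xist they were Hnf4a (0.0093) and Dnm1l (-0.087). G6pc was at 0.061 with Xist as a covariate and 0.040 for the mean over classes, and Cyp7a1 at -0.0038 with the replicate block. Leaving out 1 library gave -0.076 to 0.060 for Hspe1, -0.050 to 0.42 for Cyp7a1, -0.22 to 0.10 for Plin2, -2.47 to 0.86 for Saa1, -0.065 to 1.78 for Krt19, -0.22 to 0.10 for G6pc, -0.042 to 0.048 for Dnm1l and -0.61 to 0.12 for Scd1. Of 139 named genes called against control, 73 stayed called in every fit without 1 library, 66 did not in at least 1, and 0 changed sign. On simulated counts fitted in the same way 41% of 2-fold changes were called, so a missing call does not show that a gene stayed the same.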
